A study of Xenopus laevis with 20 samples.

Results

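The dorsal half-embryos of wild-type *Xenopus laevis* gastrulae were compared between early gastrula (stage 10) and late gastrula (stage 11.5). They are chosen here by their sample labels alone, as the samples named **Dor**, and comprise 4 of the 20 samples of the series, 2 at each stage. Each sample pooled RNA from 10 half-embryos and was hybridized to 1 Affymetrix *Xenopus laevis* Genome Array. The embryos had been injected at the 4-cell stage with *eGFP* mRNA alone in the ventral blastomere, so the **Dor** half-embryos carried no Noggin or Dkk-1 plasmid and lay opposite the injected side. The ventral half-embryos of the same embryos (**Ven**, 4 samples) were used as the comparison tissue, and the remaining 12 samples (ventral half-embryos given Noggin, Dkk-1 or both) were used only in the fits and alternatives that took all 20 arrays.

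The forming blastopore lip guided the cut at stage 10, and the ventral eGFP signal guided it at stage 11.5. Clutches 1 and 2 gave the stage 10 samples and clutches 3 and 4 the stage 11.5 samples. Stage, clutch and manner of cutting therefore cannot be told apart in the dorsal comparison. For this reason a change was called only when both later arrays lay on the same side of both earlier arrays and the limma test over all probe sets gave an adjusted p below 0.1. The samples are bulk tissue, in which fewer cells of a type and less RNA per cell cannot be told apart.

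The dorsal side of the early gastrula contains the Spemann organizer, the tissue that secretes inhibitors of BMP and Wnt signals and directs the formation of the body axis. Between these stages the mesoderm and endoderm move inside, axial and paraxial mesoderm become distinct, and the overlying ectoderm separates into neural plate and epidermis. Much of the RNA present at the start of gastrulation was laid down in the oocyte, and its removal overlaps with the first waves of transcription from the embryo's own genome. *Xenopus laevis* is an allotetraploid, and many genes have an L and an S copy (homeologs), whose probe sets can share signal.

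The dorsal label was checked against **Ven** of the same clutch. At stage 10, the BMP antagonist *chrd.1.S* (Chordin) was 4.42 and 4.74 log2 units higher in **Dor** in the 2 clutches, and *nog.L* (Noggin) was 3.08 and 2.81 higher. At stage 11.5 the excess of *chrd.1.S* was 2.89 and 1.73 and that of *nog.L* 2.18 and 2.1. *szl.L* (Sizzled, a secreted ventral inhibitor of Chordin processing) was lower in **Dor** by 1.55 ± 0.28 at stage 10 and by 1.75 ± 0.28 at stage 11.5. For *chrd.1.S*, *nog.L* and *szl.L* the labels and the values thus run the same way at both stages. Other members of the ventral and BMP list were mixed. *szl.S* was lower in **Dor** by 1.18 ± 0.34 at stage 10, not called, and by 2.16 ± 0.34 at stage 11.5. At stage 11.5 *msx1.L* was lower by 1.29 ± 0.23, while *bmp2.L* and *bmp2.S* were higher by 0.64 ± 0.10 and 1.00 ± 0.12. Of 15491 probe sets, 78 (0.504%) were called higher and 28 (0.181%) lower in **Dor** than in **Ven** at stage 10, and 233 (1.5%) and 207 (1.34%) at stage 11.5. *not.L* and *not.S*, notochord homeobox genes, were not called at stage 10 (0.13 and 0.28 higher).

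Values are log2 intensities of the RMA values that were deposited. A change is the mean of the stage 11.5 arrays minus that of the stage 10 arrays, given with its standard error (± SE, n = 2 arrays per stage). Because levels are specific to a probe set, the level of 1 gene is not set against that of another. No detection calls accompany these values, so levels near 3 to 5 carry no statement on presence. The median of the 4 **Dor** arrays was 6.81 and 6.87 at stage 10 and 6.66 and 6.68 at stage 11.5, a shift of -0.16, and the median change over all probe sets was -0.06.

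Over all probe sets, 2435 (15.7%) were called higher and 2953 (19.1%) lower at stage 11.5, 34.8% together. With each array centred on its own median, the calls were 3477 higher and 2216 lower, so that 61.1% of the calls were rises instead of 45.2%. Without the clutch 3 **Dor** array, 1610 probe sets were called higher and 2012 lower. Wherever 1 **Dor** array is left out, its stage has a single array, which is assumed to vary like the 2 arrays of the other stage. The 2 stages did not overlap in 63.9% of probe sets (28.1% higher, 35.8% lower). A called change of at least 2-fold was present for 937 probe sets that rose (6.05%) and 1118 that fell (7.22%), and at least 8-fold for 44 and 29. The exact permutation test of 2 arrays against 2 cannot give a two-sided p below 0.333, so all calls rest on the spread that limma shares among probe sets.

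Arrays of the same stage differed far less than the stages did. The standard deviation over probe sets was 0.36 for clutch 2 minus clutch 1 and 0.34 for clutch 4 minus clutch 3, against 0.72 for the stage change. Between the 1st and 99th percentiles, the stage changes ran from -2.0 to 2.11, and the clutch differences from -0.78 to 1.08 at stage 10 and from -0.94 to 0.84 at stage 11.5. A difference of at least 2-fold between clutches of the same stage was seen for 286 probe sets at stage 10 and 208 at stage 11.5.

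**Figure D1:**
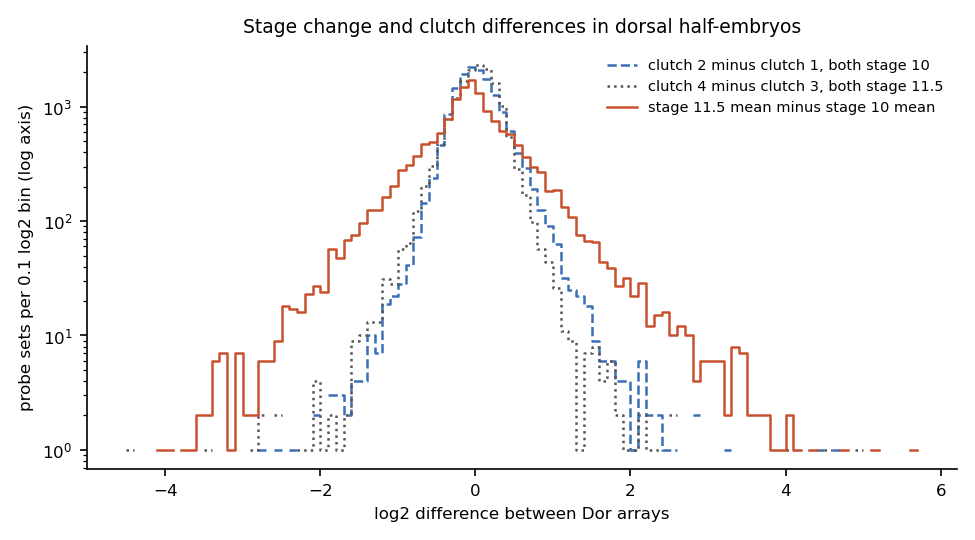
Histogram of log2 differences between **Dor** arrays over 15491 probe sets (x axis, log2 difference; y axis, probe sets per bin on a log scale). The solid line is the difference of the stage means (2 arrays each) and the broken lines are single-array differences between clutches of 1 stage; the stage change has a standard deviation of 0.72, the clutch differences 0.36 and 0.34.

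The 15 largest rises included 6 genes of the epidermis list, of which 5 were keratins, 1 of the paraxial mesoderm list and 1 of the posterior list. *krt70.L*, a keratin of the embryonic epidermis, lay at 3.08 and 3.38 at stage 10 and at 8.98 and 8.70 at stage 11.5, a change of 5.61 ± 0.19 (adjusted p = 0.00038) and the largest of all called changes. *gjb2.L*, which encodes a gap junction connexin, lay at 4.87 and 5.61 and then at 10.33 and 10.50 (5.17 ± 0.26). In both genes the groups were separated by several log2 units, and the 2 clutches of a stage differed by less than 1. *msgn1.L* (Mesogenin, a paraxial mesoderm transcription factor) went from 4.33 in both clutches to 8.53 and 8.17 (4.02 ± 0.18), and *post.L*, named for its posterior expression, from 7.42 and 7.27 to 11.27 and 10.96 (3.77 ± 0.18). The others among the 15 largest were *krt12.4.S* (4.35), *krt12.5.S* (4.10), *krt12.4.L* (3.87), *polr2i.S* (3.64), *zbtb33.S* (3.51), *cdx1.S* (3.49), *phyhdlb.L* (3.49), *herpud1.L* (3.45), *krt7.L* (3.39), *eef1a1.S* (3.36) and *dlx3.S* (3.35), all with adjusted p of 0.021 or below. Within this group *phyhdlb.L* was the most variable, with 6.07 and 6.62 at stage 10 but 11.20 in clutch 3 and 8.47 in clutch 4.

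The 15 largest falls included 5 genes of the maternal and oocyte list, 2 of the early zygotic list and 2 of the cell cycle list, with *ccna1.L* in both the first and the last. *bix1.2.S*, a Mix-like homeobox gene induced at the start of zygotic transcription, lay at 9.38 and 9.37 at stage 10 and at 5.38 and 5.36 at stage 11.5, a change of -4.00 ± 0.15 (adjusted p = 0.00038). *btg4.L*, whose mouse counterpart promotes removal of maternal mRNA, lay at 8.03 and 7.82 and then at 4.10 and 4.2 (-3.78 ± 0.17), and its homeolog *btg4.S* changed by -3.27 ± 0.18. The mitotic cyclin *ccnb1.S* fell from 11.53 and 11.67 to 8.09 and 8.40 (-3.35 ± 0.18). In each of these the clutches of a stage lay within 0.4 of each other. *LOC398162* (-3.93), *foxr1.L* (-3.45), *aldh2.L* (-3.41), *map1lc3c.L* (-3.39), *fbxo43.L* (-3.36), *XB5734924.L* (-3.32), *zfp36l2.2.L* (-3.32), *tmem171.L* (-3.27), *dnd1.L* (-3.25), *ccna1.L* (-3.06) and *bix1.1.L* (-3.06) made up the rest of the 15. Among them *fbxo43.L* encodes Emi2, which holds the egg in meiotic arrest, and *dnd1.L* a germ plasm RNA-binding protein. These 30 genes were picked as the largest changes of the same 4 arrays. Fits with each **Dor** array left out in turn therefore give no further support for them.

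**Figure D2:**
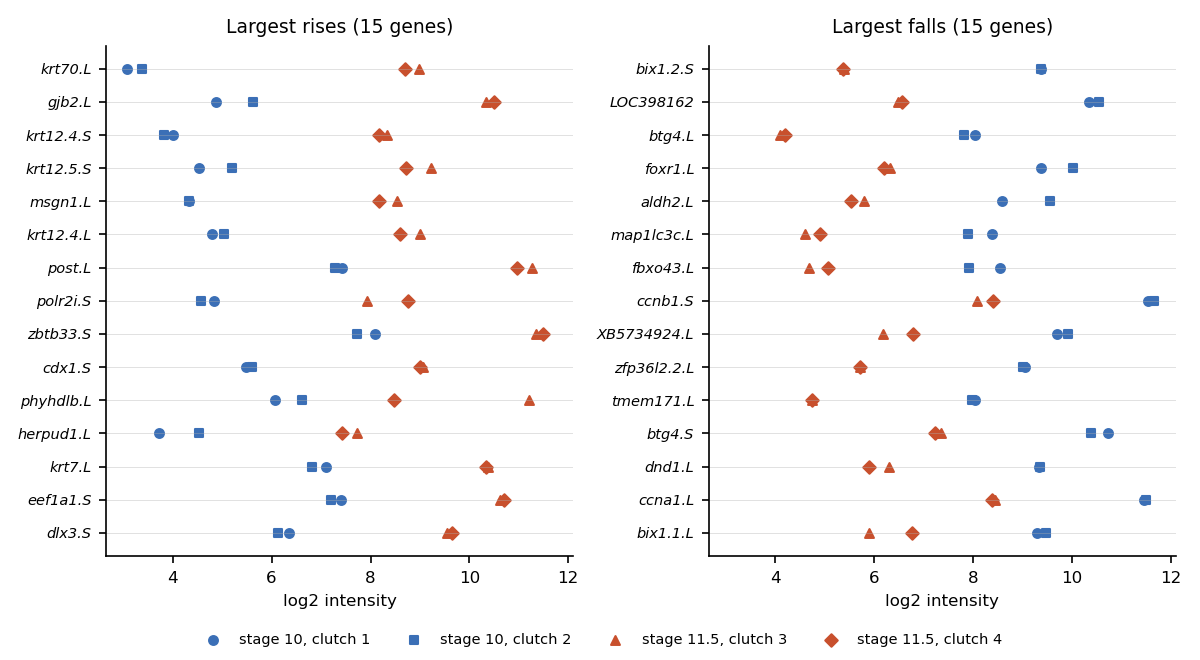
Log2 intensity (x axis) in each **Dor** array for the 15 genes with the largest rises and the 15 with the largest falls; circles and squares are the stage 10 clutches, triangles and diamonds the stage 11.5 clutches. The 2 stages do not overlap for any of the 30 genes; *phyhdlb.L* shows the widest gap between clutches of 1 stage (11.20 and 8.47).

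Gene lists for tissues and processes were counted in the same fit, beside the share of all probe sets called (15.7% higher, 19.1% lower). The lists were made with earlier results of these data known, so their counts are descriptions and carry no test. Epidermis (55.6%), paraxial mesoderm (52.2%) and the retinoid, FGF and Notch list (43.7%) had the highest shares called higher. Early zygotic genes (75.0%), maternal and oocyte genes (58.5%) and cell cycle genes (46.6%) had the highest shares called lower. The medians of the cilia, ventral blood and stress lists (-0.08, -0.04 and -0.16) lay within 0.1 of the median of all probe sets and were 0.08, 0.12 and 0.01 after centring each array on its median. Those of the other lists kept their sign after such centring and after cyclic loess normalization. The counts called were less steady under centring. Lower calls went from 7 to 2 in the Wnt pathway list. They went from 10 to 6 in both the stress list and the retinoid, FGF and Notch list. Higher calls went from 2 to 5 for axial mesoderm and from 10 to 17 for loading references. Early zygotic genes kept 2 higher and 21 lower, and epidermis had 35 higher and 0 lower.

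**Figure D3:**
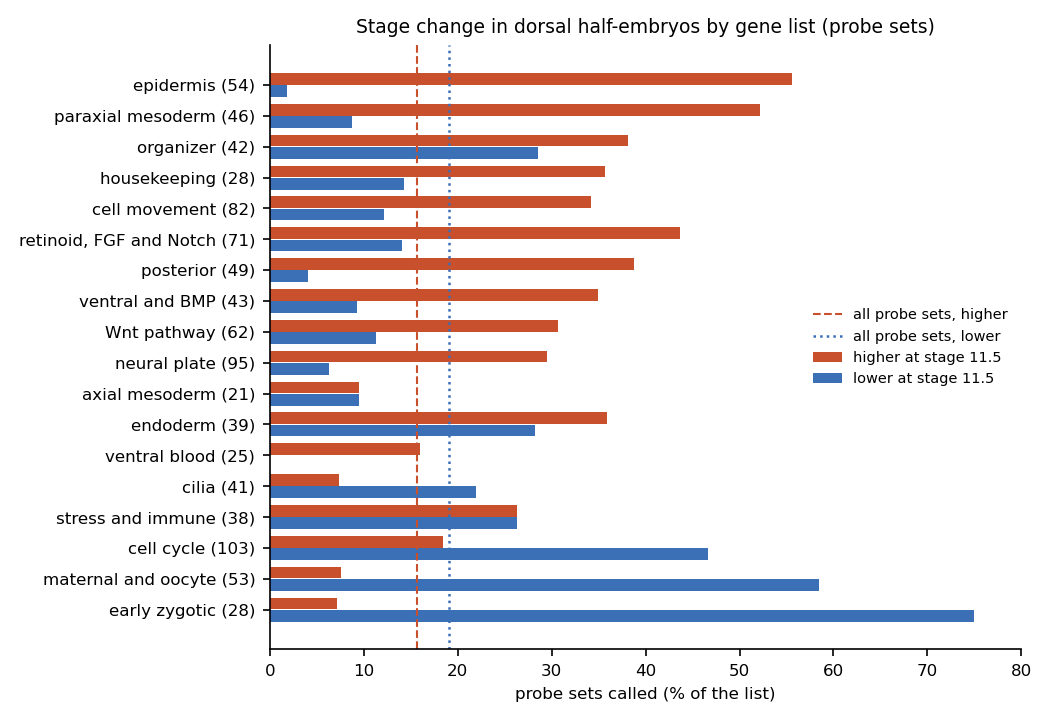
Percentage of the probe sets of each list (number in parentheses) called higher (red) or lower (blue) in **Dor** at stage 11.5, ordered by median change; vertical lines mark the shares over all probe sets, 15.7% higher and 19.1% lower. Epidermis reaches 55.6% higher and early zygotic genes 75.0% lower.

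For the epidermis list, 30 of 54 probe sets (34 genes) rose and 1 fell (0 without the clutch 1 array and 2 without that of clutch 2 or clutch 3), with a median change of 0.85. The summed linear intensity of the list was 17182 and 19187 in the stage 10 arrays and 38869 and 41420 in the stage 11.5 arrays. *krt12.4.S*, a larval epidermal keratin, lay at 3.99 and 3.83 and then at 8.34 and 8.18 (4.35 ± 0.17), and the ectodermal homeobox gene *dlx3.S* at 6.35 and 6.14 and then at 9.55 and 9.64 (3.35 ± 0.17). The groups of both genes were well apart. Further members were chosen after their values were seen: the simple-epithelium keratins *krt8.1.S* (1.77 ± 0.17) and *krt18.1.S* (2.12 ± 0.22), the epidermal regulator *grhl3.L* (1.32 ± 0.24) and the *distal-less* genes *dlx5.L* (1.67 ± 0.17) and *dlx6.S* (1.99 ± 0.17) rose, as did *trim29.L* (2.85 ± 0.25). In **Ven** of the same clutches 28 probe sets of the list were called higher and 5 lower, against 14.4% and 17.5% of all probe sets. Whether the stage 11.5 cut left more surface ectoderm in the **Dor** samples was not tested.

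Of 46 probe sets for paraxial mesoderm (27 genes), 24 rose and 4 fell, with a median change of 0.62. The lower count was 2 without the clutch 1 or clutch 2 array and 1 without that of clutch 4. *myf5.L*, a myogenic regulator, lay at 6.30 and 6.07 at stage 10 and at 10.00 and 8.83 at stage 11.5 (3.23 ± 0.36), and *tbx6.L*, a T-box gene of the presomitic mesoderm, at 5.95 and 5.7 and then at 9.04 and 8.58 (2.98 ± 0.21). Clutch 3 was above clutch 4 in both, by more than a log2 unit in *myf5.L*, and no stage 10 value came near either. Among members chosen after their values were seen, the muscle regulator *myod1.S* rose by 2.66 ± 0.36 and *myod1.L* by 1.3 ± 0.26, and the forkhead gene *foxc2.S* by 1.87 ± 0.23. *pax3.S* and *pax3.L*, which mark the dermomyotome and the neural plate border, changed by 2.75 ± 0.26 and 2.72 ± 0.16. *tbxt.S* (Brachyury), expressed throughout the early mesoderm, lay at 8.70 and 9.42 and then at 9.93 and 9.60, and its change of 0.70 ± 0.27 did not pass the test (adjusted p = 0.10).

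Of 49 probe sets for posterior genes (31 genes), 19 rose and 2 fell (1 without the clutch 2 array and 0 without that of clutch 4), with a median change of 0.21. *cdx1.S*, a caudal homeobox gene that activates posterior Hox genes, lay at 5.47 and 5.59 and then at 9.06 and 8.99 (3.49 ± 0.16), and *cdx4.L* at 5.2 and 5.4 and then at 8.58 and 8.38 (3.18 ± 0.17). The nuclear receptor gene *nr6a1.S* rose by 2.28 ± 0.19. In **Dor** 38.8% of the posterior list was called higher and 4.1% lower, against 15.7% and 19.1% of all probe sets. The posterior list had 27 probe sets called higher and 0 lower in **Ven**, against 14.4% and 17.5% of all probe sets. *hoxa7.L* and *wnt3a.S*, both chosen after their values were seen, changed by 0.14 ± 0.15 and 0.20 ± 0.20 in **Dor**, neither past the test, and by 1.08 and 1.15 in **Ven**.

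In the neural plate list, 28 of 95 probe sets (49 genes) rose and 6 fell (3 without the clutch 4 array), with a median change of 0.15. The shares were 29.5% higher and 6.3% lower, against 15.7% and 19.1% of all probe sets. *sox2.L*, a transcription factor of neural progenitors, lay at 4.12 and 4.09 at stage 10 and at 6.81 and 6.69 at stage 11.5 (2.65 ± 0.16). Its second probe set changed by 1.75 ± 0.18. The related *sox3.L* went the other way, from 11.46 and 11.80 to 10.66 and 10.61 (-1.0 ± 0.18), and *sox3.S* changed by -0.60 ± 0.17. All 4 probe sets separated the stages, 2 upward and 2 downward. The *sox3.S* call was lost without the array of clutch 2 (-0.54, adjusted p = 0.13) or of clutch 4 (-0.48, adjusted p = 0.18). *irx2.L*, an Iroquois homeobox gene, rose by 2.61 ± 0.23. The anterior hindbrain gene *gbx2.2.L*, chosen after its values were seen, rose by 1.4 ± 0.21, as did the Hes-family repressor *hes4.L* (1.32 ± 0.22).

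*hesx1.L*, a homeobox gene of the anterior neural plate, lay at 4.73 and 4.8 at stage 10 and at 6.16 and 5.86 at stage 11.5 (1.25 ± 0.17). The anterior genes *six3*, *fezf2* and *lhx5* were chosen after their values were seen. *six3.L* lay at 6.28 and 5.92 and then at 6.69 and 6.81 (0.65 ± 0.18), and the zinc finger gene *fezf2.L* at 4.06 and 4.01 and then at 4.61 and 4.71 (0.63 ± 0.16). The *six3.L* call was lost without the array of clutch 2 (adjusted p = 0.16), clutch 3 (0.11) or clutch 4 (0.15), and that of *fezf2.L* without clutch 4 (adjusted p = 0.12). *six3.S* changed by -0.12 ± 0.18, which did not pass the test. *lhx5.S*, a LIM homeobox gene, lay at 8.36 and 8.83 and then at 8.98 and 8.86 (0.33 ± 0.20, not called).

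The organizer genes did not move as a block. Of 42 probe sets (25 genes) 16 rose (38.1%) and 12 fell (28.6%), with a median change of 0.38. All probe sets together had 15.7% called higher and 19.1% lower. The homeobox genes *gsc* and *not* were among those that fell. *gsc.L* (Goosecoid, a homeobox repressor of the early organizer) lay at 9.03 and 9.45 at stage 10 and at 7.54 and 7.41 at stage 11.5 (-1.77 ± 0.20, adjusted p = 0.0022), and *gsc.S* at 8.09 and 7.88 and then at 6.36 and 6.37 (-1.62 ± 0.16). Both homeologs showed complete separation of the stages, whereas another probe set for *gsc.L*, at 5.74 and 5.2 and then 4.93 and 5.21, did not. *not.L* fell from 10.36 and 9.93 to 8.87 and 8.58 (-1.42 ± 0.21) and *not.S* by 1.06 on the log2 scale. The chemokine receptor gene *cxcr4.L* changed by -1.95 ± 0.19, and *hhex.L* (a homeobox gene of the anterior endoderm) by -1.06 ± 0.28 and *osr1.L* by -0.81 ± 0.19, the last 2 chosen after their values were seen.

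The organizer list also holds secreted BMP and Wnt antagonists. *chrd.1.S* lay at 8.99 and 9.12 and then at 9.68 and 10.02 (0.80 ± 0.18, adjusted p = 0.022), while its other probe set gave 0.52 ± 0.21 (adjusted p = 0.13). *cer1.S* (Cerberus, which binds BMP, Nodal and Wnt proteins) lay at 9.28 and 9.45 and then at 10.35 and 10.69 (1.16 ± 0.19). *frzb2.L* (Crescent, a secreted Wnt antagonist of the anterior endomesoderm) had the largest change of the list, from 5.05 and 5.01 to 7.55 and 8.58 (3.04 ± 0.32), and its other probe set agreed within that error (3.01 ± 0.30). Each of these genes was above its stage 10 values in both later clutches. *fst.L* (Follistatin, an Activin and BMP inhibitor, chosen after its values were seen) rose by 1.16 ± 0.15, and *shh.L*, the midline signal, by 1.13 ± 0.18, from 4.44 and 4.60 to 5.48 and 5.81. *nog.L* lay at 7.51 and 7.52 and then at 6.53 and 7.25, and the difference of -0.62 ± 0.25 did not pass the test (adjusted p = 0.12). *dkk1.S* (Dickkopf-1, a Wnt co-receptor inhibitor) changed by -0.38 ± 0.18, also not called.

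*otx2.S*, a homeobox gene that specifies the head region, rose from 8.38 and 8.55 to 9.78 and 9.76 (1.3 ± 0.16). *otx2.L* changed by 0.57 ± 0.20, a call that was lost without the array of clutch 1 (0.36), clutch 3 (0.48) or clutch 4 (0.66), and its other probe set by 0.72 ± 0.34, which was not called. *lhx1.L* (0.65 ± 0.21) and the Wnt antagonist *frzb.L* (0.87 ± 0.31) were called in the 4 arrays but lost the call without the array of clutch 1 (adjusted p = 0.20 and 0.22) or of clutch 4 (0.25 and 0.28), and *frzb.S* was not called (0.79 ± 0.34). *admp.S*, a BMP ligand made by the organizer, had 1 probe set that rose (0.83 ± 0.16) and 1 at -0.20 ± 0.15. The forkhead genes *foxa4.L* (0.26 ± 0.17) and *foxa4.S* (0.05 ± 0.17) did not pass the test. The axial mesoderm list, which shares *not*, *shh*, *foxa4* and *admp* with these genes, had 2 of 21 probe sets (14 genes) called higher and 2 lower, with a median change of 0.08. Its share of 9.5% in each direction was below the 15.7% higher and 19.1% lower of all probe sets.

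**Figure D4:**
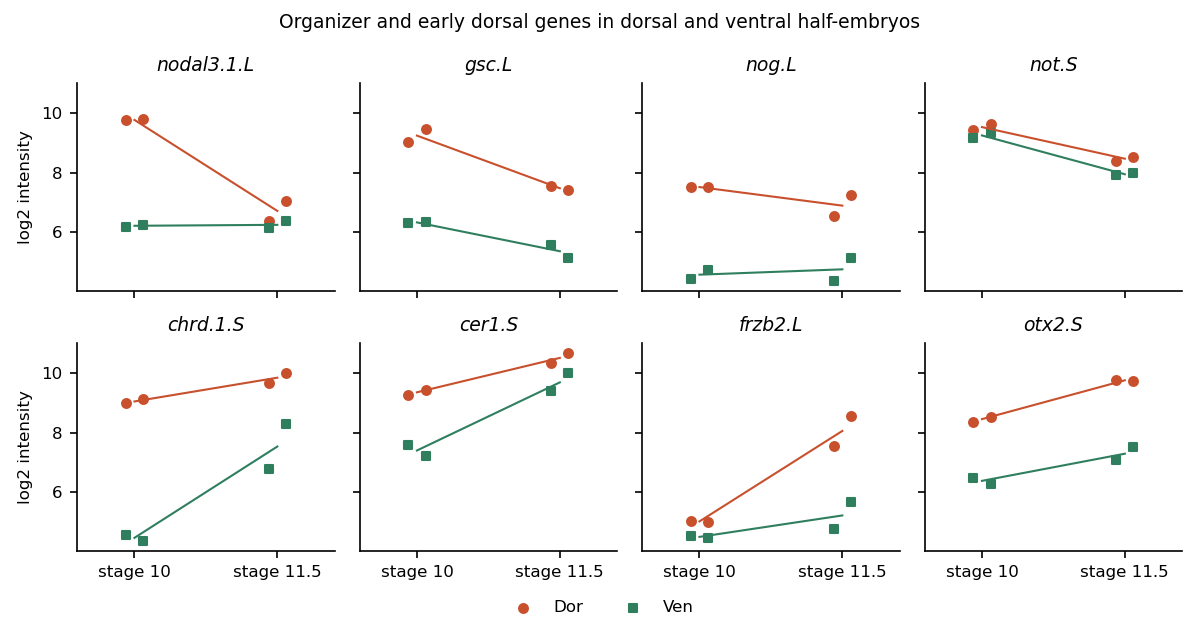
Log2 intensity (y axis) of 8 genes in **Dor** (circles) and **Ven** (squares) at stage 10 and stage 11.5, 1 point per array with lines through the means of the 2 clutches. *nodal3.1.L*, *gsc.L* and *not.S* were lower in **Dor** at stage 11.5, *chrd.1.S*, *cer1.S*, *frzb2.L* and *otx2.S* were higher, and *nog.L* did not pass the test; *nodal3.1.L* moved by -3.06 in **Dor** and 0.03 in **Ven**.

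Of 28 probe sets for genes of the first zygotic wave (20 genes), 21 were lower and 2 higher at stage 11.5 (1 higher without the clutch 1 or clutch 3 array), and the median change was -1.11. *nodal3.1.L*, a Nodal-related gene of the early organizer, lay at 9.75 and 9.78 at stage 10 and at 6.38 and 7.04 at stage 11.5 (-3.06 ± 0.24). The mesendoderm inducers *nodal2.L* (-2.22 ± 0.25), *nodal5.2.L* (-2.39 ± 0.18), *nodal1.L* (-1.33 ± 0.17) and *nodal6.L* (-1.85 ± 0.19) fell too, the first 3 chosen after their values were seen. By contrast, *nodal.L* lay at 6.22 and 6.77 and then at 6.36 and 6.78 (0.07 ± 0.25), and its stages overlapped. The *Mix* family homeobox genes followed *bix1.2.S*, with *bix1.3.S* at -2.94 ± 0.17, *mix1.L* at -2.57 ± 0.20 and *mix1.S* at -2.44 ± 0.17, the *mix1* genes chosen after their values were seen. *sia1.L* (Siamois, a direct target of the maternal Wnt signal) fell from 7.25 and 7.09 to 5.81 and 5.98 (-1.27 ± 0.17).

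*eomes.L* (Eomesodermin, a T-box transcription factor) lay at 10.35 and 10.57 and then at 9.42 and 9.40 (-1.05 ± 0.16). The T-box genes *vegt.L* and *vegt.S*, whose product is a maternal factor also made by the zygote, changed by -0.64 ± 0.16 and -0.91 ± 0.25 and were chosen after their values were seen. Both *vegt* calls were lost without the array of clutch 2 (adjusted p = 0.11 for each) or of clutch 3 (0.15 for each).

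In the maternal and oocyte list, 31 of 53 probe sets (40 genes) fell and 4 rose (2 without the clutch 1 array and 1 without that of clutch 2 or 3), with a median change of -0.81. *foxr1.L*, a maternal forkhead gene, lay at 9.38 and 10.02 and then at 6.31 and 6.19 (-3.45 ± 0.24), and *dnd1.L* at 9.33 and 9.36 and then at 6.30 and 5.89 (-3.25 ± 0.19). Later values were lower by several log2 units in both. The egg-coat gene *zpd.L* (-2.44 ± 0.16), the meiotic kinase gene *mos.L* (-1.39 ± 0.29) and the germ plasm translational repressor gene *nanos1.L* (-1.33 ± 0.25) also fell and were chosen after their values were seen. The same list had 29 probe sets called lower and 3 higher in **Ven**, against 17.5% and 14.4% of all probe sets.

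Cell cycle genes fell more often than they rose, 48 (46.6%) against 19 (18.4%) of 103 probe sets (63 genes), with a median change of -0.36. Over all probe sets 19.1% fell and 15.7% rose, so the share of the list that rose was near that of all. Among the cyclins, *ccna1.L*, the embryonic A-type cyclin, lay at 11.46 and 11.49 and then at 8.44 and 8.38 (-3.06 ± 0.15). *ccna1.S* lay at 10.78 and 10.91 and then at 9.01 in clutch 3 and 7.45 in clutch 4 (-2.61 ± 0.46), so the later clutches were apart by more than a log2 unit but both below stage 10. *birc5.L* (Survivin, of the chromosomal passenger complex) fell by 2.78 on the log2 scale. In the other direction, the G1 cyclin gene *ccnd1.L* lay at 7.86 and 7.43 and then at 9.52 and 9.67 (1.95 ± 0.20), and *ccnd1.S* (1.45 ± 0.20) and *ccnb3.S* (1.46 ± 0.27) rose as well, these 3 chosen after their values were seen.

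The *wee*, *mcm* and *pou5f3* genes described next were chosen after their values were seen. *wee2.L*, the egg form of the Wee1 kinase, lay at 10.21 and 10.13 and then at 7.76 and 7.90 (-2.34 ± 0.16), with *wee2.S* at -0.91 ± 0.15. *wee1.L* lay at 8.11 and 8.57 and then at 9.23 and 9.06 (0.80 ± 0.20). *wee1.S* changed by 0.76 ± 0.18 with 1 probe set, and its other probe set was not called. The *wee1.L* call was lost without the array of clutch 1 (adjusted p = 0.11) or of clutch 3 (0.12), and that of *wee1.S* without clutch 3 (0.11). *mcm6.2.L*, which encodes the zygotic form of a subunit of the replicative helicase, rose from 4.13 and 4.35 to 6.37 and 6.72 (2.31 ± 0.19). *mcm6.2.S* rose by 1.22 ± 0.24 with 1 probe set, and its other probe set was not called. *mcm3.L*, which encodes a different subunit, went from 8.47 and 8.78 to 6.36 and 6.32 (-2.29 ± 0.18). Of the *pou5f3* genes, relatives of mammalian *Oct4*, *pou5f3.3.L* fell from 10.59 and 10.83 to 7.51 and 8.2 (-2.86 ± 0.25), *pou5f3.1.L* rose from 10.16 and 10.61 to 11.49 and 11.69 (1.21 ± 0.20) and *pou5f3.2.L* did not pass the test (-0.16 ± 0.16).

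Within the Wnt pathway list, 19 of 62 probe sets (43 genes) rose and 7 fell (3 without the array of clutch 1, 3 or 4), with a median change of 0.16. As shares of the list these were 30.6% and 11.3%, against 15.7% higher and 19.1% lower of all probe sets. *ror2.L*, a receptor for non-canonical Wnt signals, lay at 6.07 and 6.52 and then at 9.30 and 9.62 (3.17 ± 0.22). The ligand *wnt11.S* lay at 4.12 and 3.89 and then at 6.37 and 6.06 (2.21 ± 0.19). Stage separated the arrays of both without overlap. Of the Frizzled receptors, *fzd10.S* rose by 2.41 ± 0.18 and *fzd2.S* by 2.09 ± 0.16, and the soluble antagonist *sfrp1.L* rose by 1.92 ± 0.15, while *sfrp2.S* lay at 9.06 and 8.32 and then at 9.1 and 8.01 (-0.13 ± 0.40). *fzd2*, *sfrp1* and *sfrp2* were chosen after their values were seen, as was *tcf7l1*, a nuclear Wnt repressor, whose L copy rose by 0.75 ± 0.17 and whose S copy (0.35 ± 0.18) did not pass the test. *kremen2.S*, which encodes a co-receptor of Dkk-1, changed by 0.54 ± 0.18 at levels of 3.11 to 3.84, a call lost without the array of clutch 1, 2 or 3 (adjusted p = 0.18, 0.14 and 0.32).

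The retinoid, FGF and Notch list had 31 of 71 probe sets (46 genes) higher and 10 lower (5 without the array of clutch 2 or of clutch 4), with a median change of 0.27. *dhrs3.L*, a retinaldehyde reductase gene, lay at 5.71 and 6.32 and then at 9.27 and 9.14 (3.19 ± 0.23). Other retinoid genes that rose were *crabp2.L* (2.32 ± 0.17), for a retinoic acid binding protein, and *cyp26c1.S* (1.64 ± 0.24), for an enzyme that degrades retinoic acid. The nuclear receptor gene *rxrg.L*, chosen after its values were seen, fell by 1.41 on the log2 scale. *fgfr2.L*, an FGF receptor, rose by 2.12 ± 0.21. The Notch target *hes5.1.L* lay at 5.57 and 5.77 and then at 8.47 and 7.63 (2.38 ± 0.28), and the segmentation genes *ripply2.2.S* (2.28 ± 0.20) and *ripply2.1.S* (1.21 ± 0.22, chosen after its values were seen) rose with it.

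Of 82 probe sets for cell movement and matrix (43 genes), 28 rose and 10 fell (6 without the array of clutch 2 or of clutch 3), with a median change of 0.30. *vim.L* (Vimentin, an intermediate filament protein) lay at 6.33 and 6.43 and then at 8.79 and 8.42 (2.23 ± 0.18). Among members chosen after their values were seen, the cadherin gene *cdh11.S* lay at 3.42 and 3.58 and then at 5.32 and 5.15 (1.74 ± 0.16), and the fibronectin gene *fn1.S* rose by 1.06 ± 0.18. *pcdh8.2.L*, a protocadherin of the paraxial protocadherin family, lay at 9.12 and 8.99 and then at 10.20 and 9.97 (1.03 ± 0.17). All 4 genes were higher in both later clutches.

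The endoderm list was split, with 14 of 39 probe sets (27 genes) higher and 11 lower (7 without the clutch 3 array), and a median change of 0.03. Both shares, 35.9% higher and 28.2% lower, were above the 15.7% and 19.1% of all probe sets. *darmin.L*, an endodermal gene, lay at 4.53 and 5.28 and then at 7.46 and 9.02 (3.34 ± 0.50). Its later clutches were apart by more than a log2 unit. The zinc finger genes *gata5.L* (1.08 ± 0.19), *gata5.S* (1.65 ± 0.35) and *gata6.L* (1.89 ± 0.31) rose, whereas the HMG box gene *sox17b.1.S* fell from 10.59 and 10.38 to 9.06 and 9.59 (-1.16 ± 0.22). *gata6.S* (0.61 ± 0.26) did not pass the test. The *gata* and *sox17b.1* genes were chosen after their values were seen. The list counts *mix1*, *dnd1* and *cdx1* among its members too.

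For genes of ventral tissue and BMP signalling, 15 of 43 probe sets (27 genes) rose and 4 fell (1 without the clutch 3 array), with a median change of 0.20. Called higher were 34.9% of the list and called lower 9.3%, against 15.7% and 19.1% of all probe sets. The summed linear intensity of the list was 12802 and 13392 at stage 10 and 15296 and 18951 at stage 11.5. The BMP-responsive homeobox gene *msx1.L* lay at 6.17 and 6.35 and then at 8.46 and 8.73 (2.33 ± 0.18), and *msx2.L* at 5.55 and 5.5 and then at 7.75 and 8.23 (2.46 ± 0.20). *tll1.S*, a Tolloid-type protease gene whose products cleave Chordin, rose by 2.04 ± 0.16 and *gata2.L* by 2.1 ± 0.28. These 4 genes were higher in every later array than in any earlier one. Of genes chosen after their values were seen, the ligands *bmp4.S* (1.31 ± 0.21) and *bmp7.1.L* (1.83 ± 0.26), the pseudoreceptor *bambi.L* (1.25 ± 0.19) and *id3.S* (0.87 ± 0.16), a BMP target, rose. *bambi.S* (0.38 ± 0.23) did not pass the test. *bmp2.L* fell by 0.78 ± 0.22, a call lost without the array of clutch 1 (adjusted p = 0.11) or clutch 3 (0.18), and *bmp2.S* did not pass the test (-0.03 ± 0.21). *szl.L* and *szl.S*, which define the ventral centre, changed by 0.52 ± 0.24 and 0.09 ± 0.24, neither past the test, at **Dor** levels of 3.26 to 4.26.

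The ventral mesoderm and blood list had 4 of 25 probe sets (17 genes) called higher and 0 called lower (1 lower without the clutch 4 array). Its share called higher was near the 15.7% of all probe sets, and its share called lower was below their 19.1%. The summed linear intensities of the list were 1926 to 1997 at stage 10 and 3004 to 3993 at stage 11.5, but its median change was -0.04. *gata2.L*, also in the ventral and BMP list, had the largest change of the list (2.1 ± 0.28). It lay at 7.55 and 8.11 and then at 9.62 and 10.24, so it weighs on the later sums. *aplnr.L*, the Apelin receptor gene, rose by 1.03 ± 0.21, while *aplnr.S* lay at 7.17 and 5.61 and then at 7.53 and 7.56 and did not pass the test. *cebpa.L* lay at 5.73 and 5.86 and then at 6.46 and 8.09 (1.48 ± 0.48), a call lost without the array of clutch 1 (1.41, adjusted p = 0.13). The part of these tissues in the dorsal changes was not tested.

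Genes used as loading references were not constant. Of 28 probe sets (17 genes) 10 rose (35.7%) and 4 fell (14.3%), with a median change of 0.37. The shares of all probe sets were 15.7% higher and 19.1% lower. The counts of the list depended on scaling. Median centring gave 17 higher and 4 lower (median change 0.53). Cyclic loess normalization gave 10 higher and 6 lower (median change 0.20). *eef1a1.S*, a translation elongation factor, gave 12.72 and 12.64 and then 13.02 and 13.14 with 1 probe set (0.40 ± 0.16, not called, and -0.22 after cyclic loess normalization) and 7.40 and 7.2 and then 10.62 and 10.70 with the other (3.36 ± 0.16). The TATA-binding protein genes *tbp.L* (-2.60 ± 0.21) and *tbp.S* (-2.42 ± 0.19) and *hprt1.L* (-2.02 ± 0.29) fell under every scaling tried. *odc1.L* (ornithine decarboxylase) gave 0.31 ± 0.17, 0.31 ± 0.16 and -0.08 ± 0.16 with its 3 probe sets, none called, and each changed sign under cyclic loess normalization or median centring. *actb.L*, a cytoskeletal actin chosen after its values were seen, lay at 10.03 and 11.09 and then at 11.80 and 11.91 (1.29 ± 0.33).

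Some named genes differed more between clutches of a stage than between stages, among them *gapdh.L*, *tek.S*, *hes7.1.L*, *sfrp2.S* and *nodal.L*. Overlap of the stages was not rare, as only 63.9% of all probe sets separated them. *gapdh.L* lay at 7.51 in clutch 1 and 9.63 in clutch 2, and at 7.65 and 7.74 in clutches 3 and 4, with the same pattern in **Ven** (7.50, 9.73, 7.53 and 7.73). *tek.S*, an endothelial receptor gene chosen after its values were seen, lay at 7.29, 4.50, 5.58 and 7.38 in clutches 1 to 4 of **Dor** and at 7.27, 4.61, 5.19 and 7.28 in **Ven**. Neither was called. Over all probe sets, 472 differed at least 2-fold between clutches of a stage, and 111 of them were among the calls. That is a smaller share than the 34.8% of all probe sets that were called.

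The cilia list had 3 of 41 probe sets (31 genes) higher (7.3%) and 9 lower (22.0%). The share called lower is near the 19.1% of all probe sets. The largest changes in the list were those of *dand5.S* (an antagonist of Nodal in left-right patterning) at -1.44 ± 0.18 and *ift27.L* (intraflagellar transport) at -1.43 ± 0.18. They were followed by *dynlrb2.S* (a dynein light chain) at -1.26 ± 0.16 and *tubb4b.S* (a beta-tubulin) at -1.20 ± 0.17. The stress and immune list had 10 of 38 probe sets (27 genes) in each direction, with 5 higher without the clutch 3 array and 6 lower without that of clutch 1 or clutch 3 and 5 without that of clutch 4. Each direction held 26.3% of the stress and immune list in the 4 arrays, against 15.7% higher and 19.1% lower over all probe sets. Its largest falls were those of *irf2.S* (-2.06 ± 0.21), an interferon regulatory factor, and the Polo-like kinases *plk3.L* (-1.76 ± 0.18) and *plk3.S* (-1.68 ± 0.24). Its largest rise was that of *ccng1.L* (1.85 ± 0.39), a cyclin G.

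The calls of homeologs were compared. Both members were measured by probe sets with 1 symbol for 1017 pairs. Over all probe sets, 15.7% were called higher and 19.1% lower. In 327 pairs only 1 member was called and in 458 neither was, so opposite calls could not arise there. Of the remaining pairs, 105 had both members called higher, 115 had both called lower and 12 had opposite calls. *smo*, the Hedgehog signal transducer, was such a pair and was chosen after its values were seen, with the L copy at 1.58 and the S copy at -0.84. A probe set may also detect the other homeolog, which was not tested.

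The stage change was then compared between **Dor** and **Ven** of the same embryos, in which a clutch level shared by both half-embryos cancels. The manner of cutting and any **Dor** to **Ven** difference particular to a clutch do not cancel. Neither can be told apart from stage in this comparison. In **Ven**, 2233 probe sets (14.4%) were called higher and 2717 (17.5%) lower at stage 11.5. Of the calls in **Dor**, 1960 were also called higher in **Ven**, 2447 also lower and 2 in the opposite direction, both half-embryos being of the same 4 clutches. Among the 50 largest rises in **Dor**, 48 were also called in **Ven** and 4 had a called difference between the half-embryos. Among the 50 largest falls the numbers were 48 and 3. A called difference was present for 0.523% of all probe sets. The 50 were ranked by the dorsal change, which is itself a part of that difference.

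The difference itself (change in **Dor** minus change in **Ven**, limma on all 20 arrays with clutch as a block) was called for 81 probe sets (0.523%), 45 (0.29%) with the dorsal change more positive and 36 (0.232%) with it more negative. Without clutch 1 the counts were 6 and 6, without clutch 2 they were 4 and 3, without clutch 3 they were 35 and 38, and without clutch 4 they were 72 and 74. Where a clutch is left out, each group of its stage has a single array, and the spread comes from the other stage alone. Without the block, 2 and 1 were called. Of the 45, 22 rose in **Dor** with no call in **Ven**, 10 rose in both, 8 fell in **Ven** with no call in **Dor** and 3 fell in both, and the other 2 had a rise in **Dor** with a fall in **Ven** or no call in either. Of the 36, 12 rose in both half-embryos, 10 fell in **Dor** with no call in **Ven**, 9 rose in **Ven** with no call in **Dor**, 2 fell in both, 1 fell in **Dor** and rose in **Ven**, and 2 had no call in either.

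*nodal3.1.L* had the largest difference with the dorsal change more negative. It lay at 6.17 and 6.25 and then at 6.12 and 6.37 in **Ven**, so its fall of 3.06 in **Dor** left **Dor** 0.47 above **Ven** at stage 11.5 (difference -3.09 ± 0.22, adjusted p = 3.4e-07). *nodal.L* went from above to below the dorsal level in **Ven**, at 7.11 and 7.39 and then 4.65 and 4.67, while **Dor** held at 6.22 to 6.78 (difference 2.66 ± 0.24, adjusted p = 1.3e-05). *frzb2.L* rose by 3.04 in **Dor**, with **Ven** at 4.55 and 4.47 and then 4.77 and 5.68 (difference 2.32 ± 0.24, and 2.44 ± 0.17 with the other probe set). These 3 genes were called with each of the 4 clutches left out in turn.

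*chrd.1.S* rose more in **Ven**, from 4.57 and 4.38 to 6.79 and 8.29, than in **Dor** (difference -2.27 ± 0.33, and -1.93 ± 0.35 with the other probe set). *cer1.S* rose in **Ven** too, from 7.58 and 7.24 to 9.39 and 10.00, a change of 2.29 ± 0.25. The share of organizer cells in the **Ven** samples was not tested. *evx1.L*, an even-skipped homeobox gene of ventral and posterior mesoderm, rose in **Dor** from 3.96 and 4.19 to 5.51 and 5.31 and in **Ven** from 3.77 and 4.34 to 7.68 and 7.11 (difference -2.01 ± 0.24). *hesx1.L* stayed between 4.35 and 4.92 in **Ven** (difference 1.54 ± 0.21). The call was kept without 3 of the 4 clutches for *hesx1.L*, *evx1.L* and the first *chrd.1.S* probe set, and for 2 of the 4 with the other.

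The remaining named genes with the dorsal change more positive were *hes7.1.L* (1.51 ± 0.28), a Hes-family repressor gene that lay at 8.06 and 8.94 and then at 9.06 and 8.2 in **Dor** and fell by 1.38 in **Ven**, *ripply2.2.S* (1.22 ± 0.20), *eomes.L* (1.21 ± 0.21), *foxi4.2.L* (1.21 ± 0.23) and *cyp26c1.S* (1.09 ± 0.23). *foxi4.2.L*, a forkhead gene of the ectoderm, rose by 0.57 ± 0.19 in **Dor** and fell in **Ven**, and its dorsal call was lost without the array of clutch 2 (adjusted p = 0.29), clutch 3 (0.21) or clutch 4 (0.18). With the dorsal change more negative they were *fgf20.L* (-1.36 ± 0.21), *fgf3.L* (-1.33 ± 0.22), *kremen2.S* (-1.3 ± 0.23), *sia1.L* (-1.26 ± 0.21) and *nodal6.L* (-1.19 ± 0.27). The FGF ligand *fgf3.L* lay at 5.4, 5.79, 5.49 and 5.49 in the 4 **Dor** arrays and rose in **Ven** from 4.89 and 5.26 to 6.28 and 6.34. *sia1.L* fell in **Dor** from a level above that of **Ven** (6.40 and 5.89 at stage 10) to one near it (5.99 and 6.27 at stage 11.5). Each of these 10 genes kept the call without 1 to 3 of the 4 clutches.

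**Figure D5:**
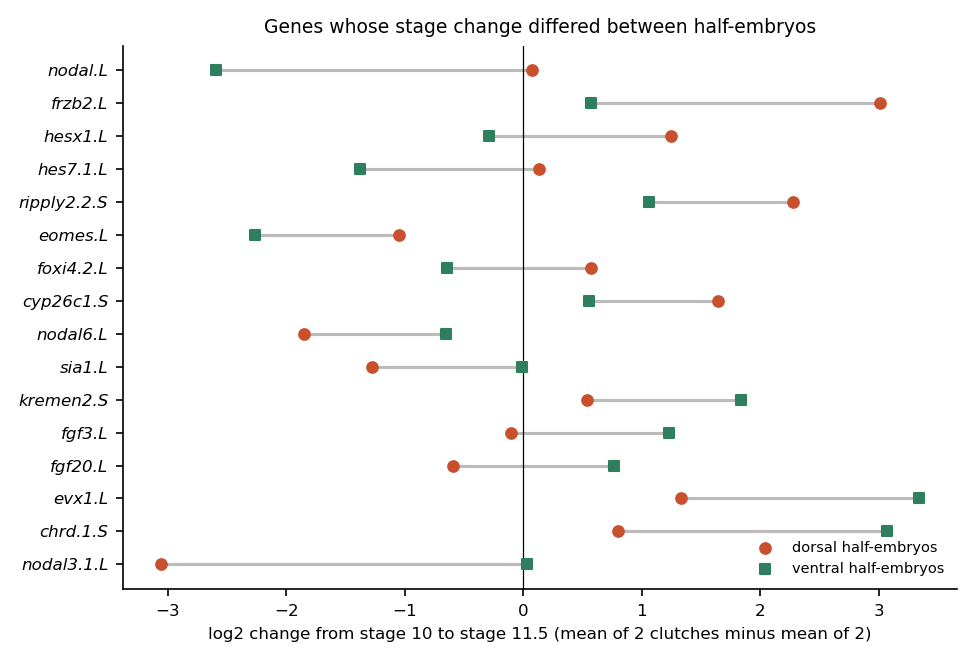
Log2 change from stage 10 to stage 11.5 (x axis) in **Dor** (circles) and **Ven** (squares) for the 8 genes with the largest called difference in each direction, 1 probe set per gene, each point a difference of means of 2 clutches. *nodal.L* moved by 0.07 in **Dor** and -2.59 in **Ven**, *nodal3.1.L* by -3.06 and 0.03.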

How the data were processed

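Total RNA of 20 pooled samples (5 conditions at 2 stages, 2 clutches each) had been hybridized to 1-colour Affymetrix arrays. The authors processed the arrays by RMA (RMAExpress, version and grouping of arrays not given in the sources used here), and the deposited values are intensities on a linear scale, although the methods describe log2 values. Log2 was taken here. Of 15611 probe sets, 120 controls were left out and 15491 tested; 9304 had 1 gene symbol in the platform annotation, 195 several and 5992 none, and 2 symbols were updated. Only probe sets with 1 symbol were named, and no sequence or genome position was used. The number of arrays limits the precision.

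The dorsal stage change was tested on the 4 **Dor** arrays with limma 3.58.1 (R 4.3.3), with Benjamini-Hochberg adjustment over all probe sets and a threshold of 0.1, unpaired and with non-overlap required. The replicates are different clutches. Rank products, as used in the study, need clutch-matched pairs, which do not exist between stages. The difference of **Dor** and **Ven** changes was fitted on 20 arrays in 10 groups with clutch as a block. Pairing follows from the clutch labels, and the deviations of **Dor** and **Ven** of a clutch from their stage means correlated over probe sets (0.83 at stage 10, 0.79 at stage 11.5). For 2 stage 10 samples of other conditions the title and the characteristics disagree on the clutch, and the title was used.

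Named genes were the 15 largest called changes in each direction, up to 4 members of each of 18 lists with the largest change, the 8 largest called differences in each direction and 17 fixed marker and reference genes. Members and lists were chosen with earlier results of these data known. A further 56 gene symbols were chosen after their values were seen, with the probe set of the largest change for each copy. On simulated data with 100 changes of each size among 15491 probe sets, the dorsal fit recovered 34% of 2-fold and 89% of 4-fold changes. The difference fit recovered 71% and 97%, and the false calls were 17 and 15. The simulation split the variance equally between clutch and array. In the data the **Dor** and **Ven** deviations of a clutch correlated at 0.83 and 0.79. The rates of the difference fit therefore do not carry over to the data. With so few changes simulated, the adjusted p threshold is stricter than in the dorsal data, where 34.8% of probe sets were called. The dorsal rates and false calls therefore do not carry over to those data. There, 2093 probe sets had a mean change of at least 2-fold, of which 14 had overlapping stages and 24 others were not called. Alternatives covered normalization, filter, variance model, threshold, samples and left-out arrays. Figures were drawn with matplotlib 3.10.9 under Python 3.11.15.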

Additional observations from a re-analysis of the deposited data

Results flagged for a closer look

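For 43 probe sets named here the change from stage 10 to stage 11.5 differed between dorsal and ventral half-embryos by the limma test of the difference (adjusted p below 0.1). They are given as the dorsal change minus the ventral change, on the log2 scale. Some belong to genes chosen after their values were seen. With the dorsal change more negative, the largest differences were those of *nodal3.1.L* (-3.09), *chrd.1.S* (-2.27 and -1.93 with its 2 probe sets) and *evx1.L* (-2.01). The FGF ligand genes *fgf20.L* (-1.36) and *fgf3.L* (-1.33), *kremen2.S* (-1.3), *sia1.L* (-1.26), *nodal6.L* (-1.195) and *cer1.S* (-1.13) followed. Cerberus rose in both half-embryos, by 1.16 in **Dor** and by 2.29 in **Ven**. The adhesion gene *pcdh8.2.L* (-1.09), *gsc.S* (-1.06), *bix1.3.S* (-1.02), *vegt.S* (-1.0), *osr1.L* (-0.99), *wnt3a.S* (-0.945), *hoxa7.L* (-0.93), *hes5.1.L* (-0.93), *nog.L* (-0.80) and *vegt.L* (-0.67) completed this group. Both *vegt* genes fell in **Dor** and changed by 0.03 and 0.09 in **Ven**.

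With the dorsal change more positive, the anterior and midline genes *hesx1.L* (1.535), *shh.L* (0.78), *fezf2.L* (0.82), *lhx5.S* (0.75) and *six3.L* (0.69) were among them. Of these, *fezf2*, *lhx5* and *six3* were chosen after their values were seen, and *six3.S* had no called difference (-0.19 ± 0.19). In the whole neural plate list, 3 of 95 probe sets were called with the dorsal change more positive and 2 with it more negative. Over all probe sets these shares were 0.29% and 0.232%. Also more positive were the Wnt antagonists *frzb2.L* (2.32 and 2.435 with its 2 probe sets) and *sfrp2.S* (0.98) and the Wnt repressor gene *tcf7l1.L* (0.69) with *tcf7l1.S* (0.94). *sfrp2.S* was not called in **Dor** and fell by 1.11 in **Ven**. Ligands and inhibitors of the TGF-beta family were *nodal.L* (2.665), *bmp2.L* (0.80), *bmp2.S* (0.86) and *fst.L* (0.71). The Hes-family repressor gene *hes7.1.L* (1.51) and the segmentation genes *ripply2.2.S* (1.22) and *ripply2.1.S* (0.88) belonged to this group too. The rest were *eomes.L* (1.21), *foxi4.2.L* (1.21), *gjb2.L* (1.09), *cyp26c1.S* (1.09), *cebpa.L* (1.02) and *cdh11.S* (1.0).

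Of these 43 probe sets, 4 were called with each of the 4 clutches left out in turn (*nodal.L*, *nodal3.1.L* and both of *frzb2.L*), 4 without 3 of the clutches, 16 without 2, 15 without 1, and 4 (*nog.L*, *shh.L*, *six3.L* and *vegt.L*) with none. Each fit without a clutch takes its spread from the stage that keeps both clutches. Without the clutch block 3 of the 43 were called, those of *nodal.L*, *nodal3.1.L* and *hesx1.L*.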

How the results depend on the processing

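The dorsal calls (2435 higher, 2953 lower) stayed within 1.5 times these counts under cyclic loess normalization (2538 and 2570), median centring (3477 and 2216), the filter on a mean log2 level above 6 (2047 and 2375), trended and robust variances (2437 and 2930), an adjusted p below 0.05 (1834 and 2297), all 20 arrays with no replicate block (2738 and 3232) and all 20 arrays with clutch as a random replicate block (2971 and 3480). A required change of at least 2-fold left 937 and 1118. Leaving out 1 **Dor** array, with the lone array of its stage assumed to vary like the others, gave 1610 to 2304 higher and 2012 to 2531 lower, the lowest without clutch 3. Some genes below the threshold changed sign, and the cause was not tested. Under cyclic loess normalization these were *foxa4.S* (-0.087), *fgf3.L* (0.035), *eef1a1.S* (-0.22), *odc1.L* (-0.12 and -0.13) and *bmp2.S* (0.057), and under median centring *fgf3.L* (0.065), *odc1.L* (0.086), *bmp2.S* (0.14), *pou5f3.2.L* (0.0015), *sfrp2.S* (0.033) and *six3.S* (0.049). With 1 array left out, the changes ran from -0.061 to 0.16 for *foxa4.S*, -0.31 to 0.57 for *hes7.1.L*, -0.20 to 0.35 for *nodal.L*, -0.17 to 0.013 for *odc1.L*, -0.25 to 0.19 for *bmp2.S*, -0.67 to 0.41 for *sfrp2.S*, -0.27 to 0.039 for *six3.S*, -0.21 to 0.39 for *szl.S*, -0.29 to 0.095 for *fgf3.L*, -1.94 to 0.18 for *gapdh.L*, -0.81 to 1.98 for *tek.S* and -0.018 to 0.42 for *wnt3a.S*.

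The differences between half-embryos (45 more positive and 36 more negative in **Dor**) depended on the design. With no replicate block 2 and 1 were called, with only the 8 **Dor** and **Ven** arrays and the block 107 and 105, with the level filter 20 and 26, at an adjusted p below 0.05 25 and 26, and without the 2 arrays of conflicting clutch labels 29 and 30. Without 1 clutch the counts ran from 4 to 72 and from 3 to 74. In those fits the spread comes from the stage that keeps both clutches. Cyclic loess gave 43 and 36, and the trended model 46 and 38. With 2 arrays per stage and each stage from its own clutches, no alternative can tell stage from clutch, and the lack of detection calls limits what dim probe sets can show.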
